A study of Mus musculus with 143 samples.

Results

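Rn7sk and 9 other small nuclear RNA (snRNA) genes were followed through single mouse oocytes that had lost Dis3, Exosc10 or both. The 10 genes are Rn7sk, Rnu7, Rnu11, Gm22973, Gm24716, Gm25867, Gm25541, Gm25360, Gm22513 and Gm22265, out of 925 genes that RefSeq types as snRNA and that the count files list. They were chosen by their summed counts, as the best-counted genes of that class, and by their gain in the poly(A) fraction of Dis3 knockout oocytes, so their read totals and their Dis3 changes in both assays are given as a description, with no test. Together they held 76.6% of 6062 snRNA counts in poly(A) libraries and 83.0% of 35344 in libraries depleted of ribosomal RNA (RiboMinus). Rn7sk ranked first in both assays, with 3133 and 13548 counts. In poly(A) libraries the members held ranks 1 to 6, 8, 14, 15 and 55, so Gm23511 at rank 7 (142 counts) and Rnu12 at rank 9 (128 counts) lay just outside, while the member Gm22513 held only 4 counts. In RiboMinus libraries Rnu12 (889 counts, rank 7) again lay just outside, Gm24716 held 23 counts, Gm25867 held 10, and Rnu7 held 0 counts in 48 libraries.

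Small nuclear RNAs are short noncoding RNAs that work as particles with proteins and as a rule carry no poly(A) tail. The product of Rn7sk is the 7SK RNA, made by RNA polymerase III, which with HEXIM and LARP7 proteins holds the elongation kinase P-TEFb inactive. Rnu7 encodes the U7 RNA, which guides the processing of replication-dependent histone messages, and Rnu11 encodes the U11 RNA, which recognises the 5′ splice site of the minor class of introns. The genes with a Gm number carry no assigned role in the files. The nuclear RNA exosome, whose ribonucleases are DIS3 and EXOSC10, trims the ends of snRNA precursors and degrades nuclear transcripts, often after a short oligo(A) tail has been added to them.

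Per the labels, mutant mice were made with CRISPR/Cas9, and the Cre driver of the conditional knockouts (cKO) is not given in the sources used here. All 119 RNA libraries were from single oocytes to which ERCC synthetic RNAs had been added. Poly(A) libraries came from dissected oocytes at the germinal vesicle stage (GV), from GV oocytes cultured for 3 h in M2 medium (GV3h), and from ovulated eggs (MII) collected from the oviducts of superovulated females, with 8 controls at each stage and 15, 16 and 16 Dis3 cKO oocytes. RNA was captured on oligo-dT beads. RiboMinus libraries were primed with random hexamers and came in groups of 8, namely GV oocytes of adults (control and Dis3 cKO) and oocytes taken on postnatal day 20 (p20). The p20 oocytes were controls or lacked Dis3, Exosc10 (Exosc10 cKO) or both genes (dcKO). The ages of the adults and the alleles carried by controls are not stated in the labels. Titles of RiboMinus libraries carry tags (2 per group of 8) whose meaning the labels do not give, so p-values measure the spread between these oocytes, which may share mothers.

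Gene counts ranged from 4843964 to 15412200 per poly(A) library and from 8492102 to 35429028 per RiboMinus library, and ERCC counts from 34158 to 585335 and from 7089 to 192786. Dis3 was 13.4 CPM (read counts scaled to the gene counts of the library) in GV controls and 3.15 CPM in GV Dis3 cKO, and 13.1 CPM in p20 controls and 1.99 CPM in p20 Dis3 cKO. Exosc10 was 113.5 CPM in p20 controls and 3.11 CPM in Exosc10 cKO. All 8 oocyte markers were present in every group, with a summed level of 6687 to 22170 CPM, while the 9 granulosa and cumulus markers summed to 19.2 to 128.5 CPM, with Ptx3 at 0 in 11 of the 12 groups. The granulosa sum was lower in poly(A) Dis3 cKO than in control oocytes (medians of 42.6 against 73.2 CPM at GV, 30.3 against 51.4 at GV3h and 35.4 against 68.3 at MII), lower in adult RiboMinus Dis3 cKO (37.6 against 47.9), lower in dcKO than in p20 controls (39.0 against 63.2) and higher in p20 Dis3 cKO (72.1), and its part in the results was not tested. The number of gene counts per ERCC count, a measure of captured RNA per oocyte, was 403 ± 48.5 in adult RiboMinus controls and 260 ± 78.6 in adult Dis3 cKO (SD, n = 8 each), and among MII Dis3 cKO oocytes 1 library stood apart at 14.4.

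The members are short genes at 10 separate loci. Per the submitters' processing notes the build is mm10, and the locations are those of the RefSeq annotation of the same assembly, GRCm38.p6. Rn7sk (ENSMUSG00000065037) is 332 bases long at chr9:78175302-78175633. Rnu7 (ENSMUSG00000089083, 62 bases) is at chr6:124741225-124741286 and Rnu11 (ENSMUSG00000077323, 108 bases) at chr4:132270079-132270186. Gm22973 (191 bases) is at chr12:59040335-59040525, Gm24716 (104 bases) at chr13:56342425-56342528, Gm25541 (126 bases) at chr2:27539805-27539930, Gm25360 (191 bases) at chr1:72226240-72226430 and Gm22513 (164 bases) at chr12:54696782-54696945. These 8 genes overlap no other annotated gene. The other members lie inside protein-coding genes, Gm25867 (103 bases) at chr11:79635311-79635413 within the bounds of Rab11fip4 and Gm22265 (116 bases) at chr1:192745571-192745686 within the bounds of Hhat. Whether counting used strand is not given in the sources used here, so reads of these 2 members and of their host genes cannot be told apart with certainty. Small nuclear RNA genes have many near-identical copies, and how reads shared among copies were assigned is not stated, which leaves all member counts uncertain.

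Rn7sk was more abundant in the poly(A) fraction of Dis3 cKO oocytes than in that of controls before ovulation, and its total RNA showed no such excess. Levels are given as counts per 1000 ERCC counts of the same library. In poly(A) libraries of GV controls Rn7sk ran from 0.0420 over a median of 0.261 to 0.415 (mean 0.239 ± 0.154 SD, n = 8). In GV Dis3 cKO oocytes it ran from 0.346 over 0.586 to 1.26 (0.706 ± 0.316, n = 15), and 12 of the 15 lay above the highest control. The ratio of the group means was 2.96.

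At GV3h, Rn7sk ran from 0.292 over a median of 0.445 to 0.651 in controls (0.448 ± 0.122, n = 8) and from 0.483 over 0.884 to 1.39 in Dis3 cKO oocytes (0.926 ± 0.291, n = 16). The ratio was 2.07, and 13 of the 16 lay above the highest control. In MII eggs the control range of 0.0627 to 0.209 (median 0.147, 0.15 ± 0.0445) and the Dis3 cKO range of 0.0622 to 0.541 (median 0.162, 0.198 ± 0.111, n = 16) overlapped almost wholly. The ratio there was 1.32, and 4 of 16 eggs lay above the highest control. As a log2 change this was 0.40, against a median of 0.52 over all genes at MII. The excess of Rn7sk in the poly(A) fraction was thus clear of the controls for most oocytes before ovulation and for few eggs after it.

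In total RNA the mean of Rn7sk was lower in Dis3 cKO than in controls per ERCC count, as was the median of all genes. Adult RiboMinus controls ran from 4.56 over a median of 8.01 to 14.6 (8.88 ± 3.77, n = 8) and adult Dis3 cKO oocytes from 3.34 over 6.76 to 12.2 (6.75 ± 2.7, n = 8), and the groups overlapped. The ratio was 0.760, a log2 change of -0.40, and in CPM the sign turned to 0.32. The median log2 change of all genes per ERCC count was -0.52 in adults and -0.31 at p20. Within title tags the controls stood at 6.70 and 11.1 and the Dis3 cKO oocytes at 8.18 and 5.32, so tags of 1 genotype differed by as much as the genotypes did. At p20 controls stood at 6.74 ± 1.58 and Dis3 cKO oocytes at 6.06 ± 2.05, a ratio of 0.899.

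**Figure D1:**
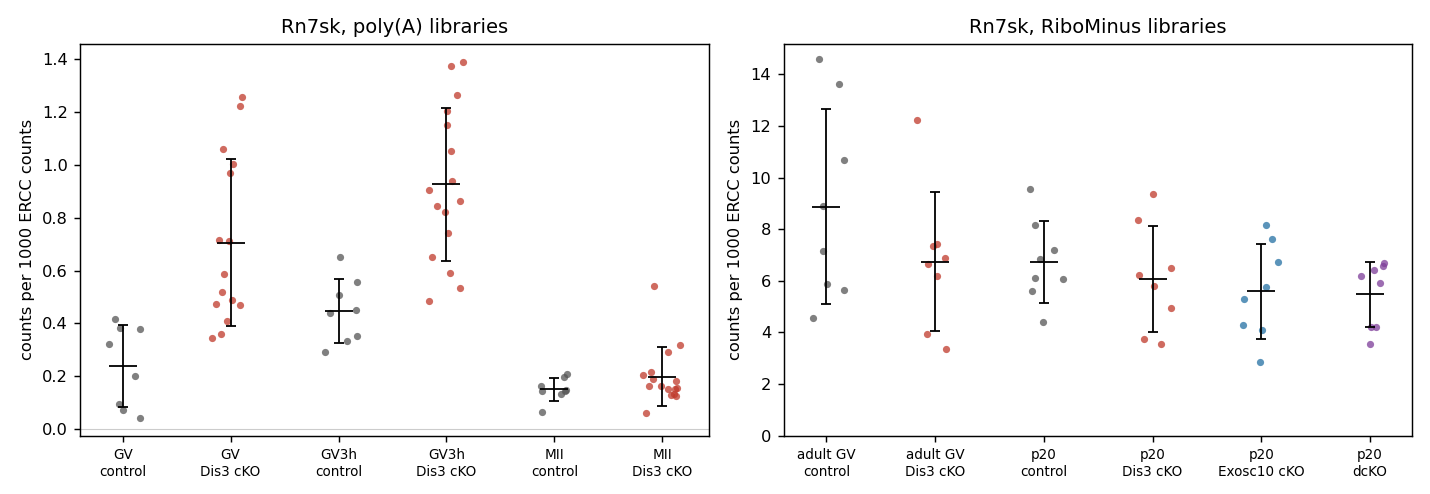
Rn7sk in single oocytes, as counts per 1000 ERCC counts (vertical axes, 1 scale per assay), for 6 poly(A) groups on the left and 6 RiboMinus groups on the right; each point is 1 oocyte, and bars are the mean and SD. Poly(A) levels were above controls in Dis3 cKO oocytes at GV (0.706 against 0.239) and GV3h (0.926 against 0.448), while RiboMinus groups overlapped.

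Ordered by mean, the poly(A) levels of Rn7sk ran from GV3h Dis3 cKO (0.926) over GV Dis3 cKO (0.706), GV3h control (0.448), GV control (0.239) and MII Dis3 cKO (0.198) to MII control (0.15), and neighbours in this order overlapped in range. In RiboMinus libraries the order was adult control (8.88), adult Dis3 cKO (6.75), p20 control (6.74), p20 Dis3 cKO (6.06), p20 Exosc10 cKO (5.60 ± 1.83) and p20 dcKO (5.48 ± 1.26). Each neighbouring pair in that order differed by less than 1 SD of either group. The order between the ages depends on the scale, since gene counts per ERCC count averaged 403 in adult controls and 1267 in p20 controls. In CPM Rn7sk was 22.4 in adult controls and 28.1 in adult Dis3 cKO. At p20 it was 5.41 CPM in controls, 6.14 in Dis3 cKO, 4.83 in Exosc10 cKO and 5.27 in dcKO. The plot of Rn7sk by oocyte shows both orders.

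The gain of a gene in the poly(A) fraction is here its log2 change in GV poly(A) libraries less its log2 change in adult RiboMinus libraries, both for Dis3 cKO against control and per ERCC count. The gain of Rn7sk was 1.96 on the log2 scale, or 3.89-fold, from 1.56 in poly(A) and -0.40 in total RNA. Over 14747 genes that passed the count filter in both assays, the median gain was 0.24 and the 5th to 95th percentiles ran from -0.65 to 1.16. Rn7sk lay above 98.9% of these genes, with 167 genes higher, a place that its choice as a member used. Leaving out each library in turn kept its gain between 1.80 and 2.14, in CPM it was 1.63, and from group medians 1.41.

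Of the other members, 5 had counts for a gain. For Gm22973 it was 4.50, from GV poly(A) libraries that held only 36 counts in Dis3 cKO and 1 in controls, so its size is known only roughly. The gain of Gm22265 was 4.47, again against 1 control count, and that of Rnu11 was 1.66, also against 1 control count, so that its counting interval reaches below its rise in total RNA. Gm25360 had 0 control counts, which makes its gain at least 2.58. Gm25541 had a gain of 0.24, which rests on 8 poly(A) counts in Dis3 cKO and 4 in controls. Without single libraries it ran from -0.49 to 1.77, and in CPM it was -0.29. No gain was computed for the remaining 4, of which Rnu7, Gm24716 and Gm25867 held 3 or fewer counts in adult RiboMinus Dis3 cKO libraries and Gm22513 held 4 in poly(A) libraries.

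**Figure D2:**
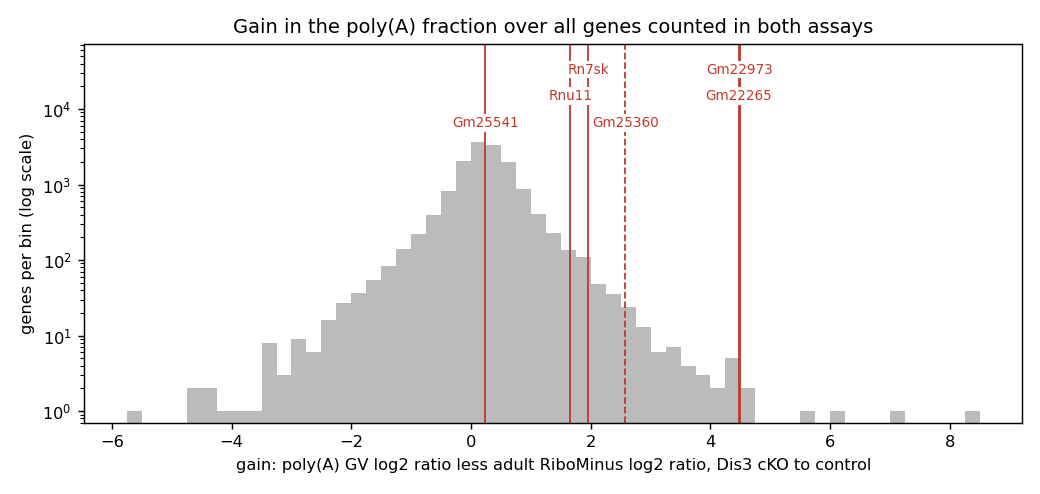
Histogram of the gain in the poly(A) fraction for 14747 genes (horizontal axis, difference of 2 log2 ratios of Dis3 cKO to control; vertical axis, genes per bin on a log scale), with vertical lines at the 6 members that have a gain and a dashed line for a lower bound. Rn7sk stands at 1.96 and Gm22973 at 4.50, against a median of 0.24, and Gm25541 stands at 0.24.

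Rnu11, the RNA of the minor spliceosome, was higher in Dis3 cKO oocytes in both fractions. In poly(A) libraries of GV oocytes 1 of 8 controls held a single count, against 66 counts in 12 of 15 Dis3 cKO oocytes, a pooled ratio of 26.9 with a 95% exact counting interval of 4.66 to 1077. No control held a count at GV3h or MII, where Dis3 cKO libraries held 37 and 54 counts in 12 of 16 oocytes each. Against a floor of 3 counts over the control group, these are at least 4.71-fold and 10.6-fold higher. Such intervals and floors cover counting error only, since the reads carry no molecular identifiers.

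In total RNA of adult oocytes Rnu11 ran from 0 over a median of 0.106 to 0.286 in controls (0.119 ± 0.0970, n = 8) and from 0.0822 over 0.475 to 3.18 in Dis3 cKO (1.02 ± 1.18, n = 8), a ratio of 8.52 with 5 of 8 oocytes above the highest control. The excess lay mostly in 1 title tag, since the oocytes tagged AM1713 averaged 1.84 and those tagged AM1757 averaged 0.184. With AM1757 alone the log2 change was 0.63 instead of 3.09. At p20 the controls ran from 0 over 0.167 to 0.603 (0.192 ± 0.186) and the Dis3 cKO oocytes from 0.199 over 0.532 to 2.01 (0.741 ± 0.596), a ratio of 3.86, and here both tags stood near the group mean (0.722 and 0.759). Rnu11 was thus the only member whose mean in Dis3 cKO exceeded 2 times the control in total RNA at both ages.

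**Figure D3:**
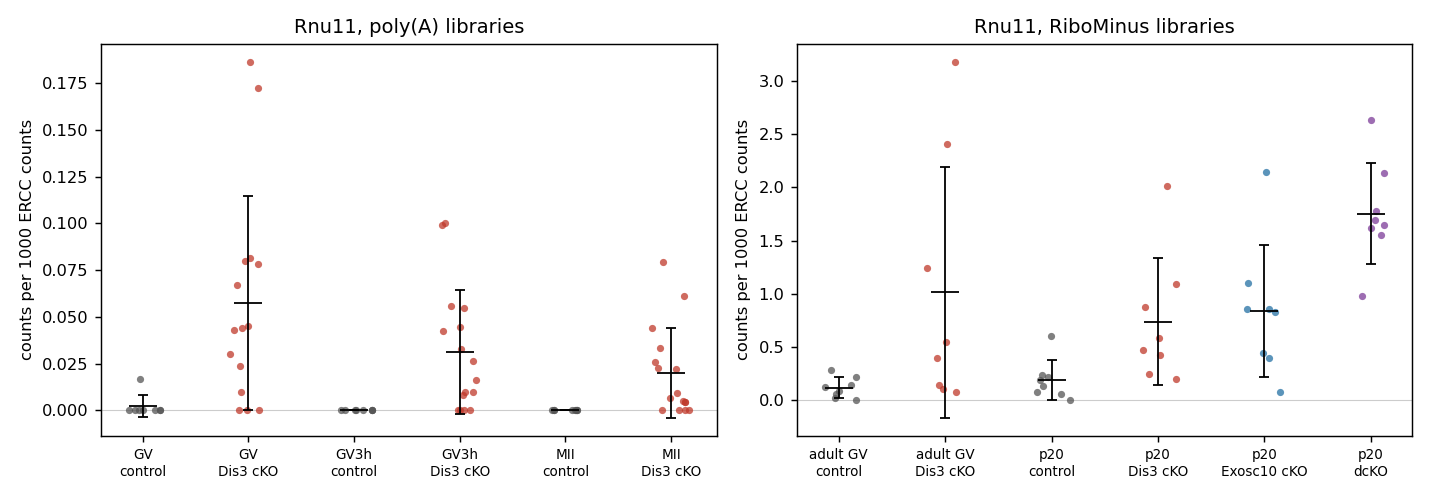
Rnu11 in single oocytes, as counts per 1000 ERCC counts (vertical axes, 1 scale per assay), for 6 poly(A) groups on the left and 6 RiboMinus groups on the right; each point is 1 oocyte, and bars are the mean and SD. Poly(A) controls held 1 count in all, and in RiboMinus libraries the p20 means ran from 0.192 in controls over 0.741 in Dis3 cKO and 0.840 in Exosc10 cKO to 1.76 in dcKO.

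Rnu7, the RNA of histone message processing, was found in poly(A) libraries alone. At GV its level was 0.0808 ± 0.101 in controls and 0.0855 ± 0.0468 in Dis3 cKO, a ratio of 1.06 that rests on control oocyte 4, which held 0.321, and without that oocyte the log2 change was 0.88 instead of 0.08. At GV3h it ran from 0 over a median of 0.0444 to 0.0962 in controls (0.0420 ± 0.0332) and from 0.0389 over 0.127 to 0.240 in Dis3 cKO (0.120 ± 0.0532), with 11 of 16 oocytes above the highest control and a ratio of 2.85. At MII the means were 0.00338 ± 0.00528 and 0.0129 ± 0.00994, a ratio of 3.82 from 6 and 40 counts, and the log2 change there ran from 1.74 to 2.64 without single libraries. The Dis3 cKO means thus stood above the controls at GV3h and MII. At GV no Dis3 cKO oocyte exceeded the highest control, the log2 change ran from -0.11 to 0.88 without single libraries, and with title numbers 1 to 8 alone it was -0.24.

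Gm22973 and Gm25360 were nearly absent from control poly(A) libraries and present in those of Dis3 cKO oocytes. Gm22973 held 1, 0 and 2 counts in the controls at GV, GV3h and MII, against 36, 155 and 109 counts in Dis3 cKO. Its GV3h level ran from 0 over 0.0992 to 0.352 (0.124 ± 0.0836, n = 16), with 15 of 16 oocytes above every control, a pooled change of at least 19.7-fold. At MII all 16 Dis3 cKO eggs held a count, with a pooled ratio of 32.1 (95% exact interval 8.68 to 269), and at GV 9 of 15 oocytes did, with a ratio of 14.7 (2.47 to 595). Gm25360 held 0 counts in all 24 controls and 30, 96 and 6 counts in Dis3 cKO. At GV3h every one of the 16 Dis3 cKO oocytes held Gm25360, from 0.0161 over 0.0648 to 0.327, at least 12.2-fold above the floor, the only instance among members and poly(A) stages in which the groups did not overlap; of all genes tested, 28.2% were called in that comparison. At GV and MII the bounds for Gm25360 were 4.07-fold and 1.18-fold.

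In total RNA these 2 genes showed no such excess. Per ERCC count, Gm22973 had an adult ratio of 0.650 (0.508 ± 0.203 against 0.330 ± 0.228) and Gm25360 one of 0.682 (2.83 ± 1.35 against 1.93 ± 0.988), and in CPM both signs turned, to log2 changes of 0.21 and 0.18. At p20 the ratios were 0.896 and 0.922, again with the sign turned in CPM (0.31 and 0.15). Over all genes the median log2 change per ERCC count was -0.52 in adults and -0.31 at p20.

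Gm22265 and Gm25541 were well counted in total RNA and rare in poly(A) RNA. Gm22265 held 1 count in GV controls and 37 counts in 8 of 15 GV Dis3 cKO oocytes, a pooled ratio of 15.1 (95% exact interval 2.54 to 611), and at GV3h and MII it held 0 control counts against 12 and 7. Gm25541 held 4, 0 and 3 control counts and 8, 13 and 21 in Dis3 cKO, with ratios of 0.967 at GV and 4.12 (1.23 to 21.6) at MII and a bound of 1.65-fold at GV3h. In adult total RNA per ERCC count the ratios were 0.678 for Gm22265 (1.10 ± 0.575 against 0.746 ± 0.263) and 0.820 for Gm25541 (3.48 ± 1.30 against 2.86 ± 0.862), and in CPM both signs turned, to log2 changes of 0.13 and 0.48. Over all genes the median adult log2 change per ERCC count was -0.52. Gm25541 was the second best-counted member of total RNA, and its GV poly(A) ratio rests on so few counts that single libraries moved its log2 change from -0.78 to 1.48.

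Gm24716 and Gm25867 were the converse, counted in poly(A) libraries and nearly absent from total RNA, where they held 23 and 10 counts in 48 libraries. Gm24716 was 0.0356 ± 0.0358 in GV controls and 0.0570 ± 0.0550 in Dis3 cKO, 0.0249 ± 0.0162 and 0.0825 ± 0.0666 at GV3h, and 0.00952 ± 0.0123 and 0.0287 ± 0.0231 at MII, with ratios of 1.6, 3.31 and 3.02. At GV the log2 change of Gm24716 ran from 0.34 to 1.14 without single libraries and was -0.10 with title numbers 1 to 8 alone. At MII it ran from 1.35 to 2.35 without single libraries. At GV3h 7 of 16 Dis3 cKO oocytes exceeded the highest control. Gm25867, which lies within Rab11fip4, had ratios of 2.87 at GV (0.0160 ± 0.0234 against 0.0459 ± 0.0371), 1.03 at GV3h and 3.75 at MII, where 9 of 16 eggs exceeded the highest control. Its log2 change at GV ran from 1.33 to 2.19 without single libraries.

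Gm22513 was all but unseen in poly(A) RNA, with 4 counts in 71 libraries, all at GV in Dis3 cKO, so no fold was computed there. In adult total RNA its ratio was 0.671 per ERCC count (1.5 ± 0.713 against 1.0 ± 0.535), and its log2 change in CPM was 0.17. Over all genes the median adult log2 change per ERCC count was -0.52. At p20 Gm22513 was far lower in Dis3 cKO. Controls ran from 0.771 over a median of 1.34 to 2.83 (1.47 ± 0.622, 168 counts) and Dis3 cKO oocytes from 0 over 0.103 to 0.596 (0.191 ± 0.231, 18 counts), so all 8 Dis3 cKO oocytes lay below the lowest control, at a ratio of 0.130. Of all genes tested at p20, 6.09% were called in that comparison (124 higher and 844 lower, or 574 and 597 with TMM scaling). The 2 Dis3 cKO tags averaged 0.315 and 0.0664, both below the control tags at 1.69 and 1.25.

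**Figure D4:**
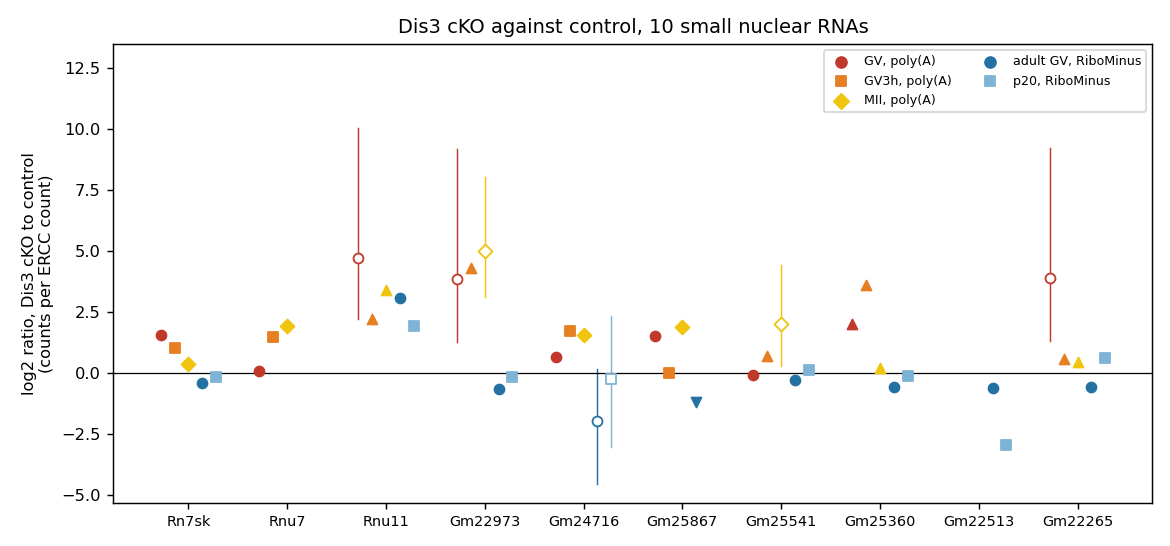
Change of the 10 members in Dis3 cKO against control (vertical axis, log2 ratio of counts per ERCC count) at 3 poly(A) stages and 2 RiboMinus ages. Filled circles, squares and diamonds are ratios of group means, open ones are pooled ratios with 95% exact counting intervals, triangles are bounds, and absent symbols are comparisons with too few counts. Poly(A) symbols lie mostly above 0, RiboMinus symbols near or below 0 except for Rnu11 (3.09 and 1.95) and Gm22265 at p20 (0.64), and Gm22513 at p20 lies at -2.95.

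Summed over the 10 members, the poly(A) level per 1000 ERCC counts was 0.384 ± 0.194 in GV controls and 1.06 ± 0.421 in GV Dis3 cKO, a ratio of 2.76, with ratios of 2.57 at GV3h and 1.92 at MII. Without Rn7sk the other 9 members had ratios of 2.43, 4.58 and 6.26, so the lower MII ratio was carried by Rn7sk. In total RNA the 10 members summed to ratios of 0.794 in adults and 0.931 at p20. These are log2 changes of -0.33 and -0.10, against medians of -0.52 and -0.31 over all genes. The 920 other snRNA gene IDs summed to ratios of 1.64, 2.96 and 1.9 in poly(A) libraries and of 1.40 and 1.15 in total RNA. Just outside the members, Rnu12, the U12 RNA of the minor spliceosome, held 0, 0 and 1 control counts in poly(A) libraries against 46, 62 and 19 in Dis3 cKO, and in adult total RNA its level went from 0.299 ± 0.253 among controls to 0.710 ± 0.736 among Dis3 cKO oocytes. Gm23511 held 15, 1 and 14 control counts against 52, 35 and 25.

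Per kilobase of gene, in adult RiboMinus controls Gm25541 (27.7 counts per 1000 ERCC counts per kilobase) and Rn7sk (26.7) stood highest, followed by Gm25360 (14.8), Gm22265 (9.49), Gm22513 (9.14), Gm22973 (2.66) and Rnu11 (1.10). In poly(A) libraries of GV controls the same scale put Rnu7 (1.30) above Rn7sk (0.719), Gm24716 (0.342) and Gm25867 (0.155), with the other 6 at 0.0503 or less. The Rnu7 mean was raised by control oocyte 4, at 0.321 per 1000 ERCC counts against a next highest of 0.0828. The members that led total RNA were thus, Rn7sk aside, not those that led poly(A) RNA.

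The p20 groups allow a test of Exosc10 loss, which the choice of members did not use. EdgeR's quasi-likelihood test was fitted to all 4 p20 groups with ERCC counts as library sizes, and 7 of the 10 members passed its filter on low counts. In Exosc10 cKO against control 1 of the 7 passed the Benjamini-Hochberg threshold, where 2.29% of 15882 genes were called. That member was Gm22265, which ran from 0.114 over a median of 0.50 to 0.981 in controls (0.564 ± 0.291, n = 8) and from 1.01 over 2.80 to 4.26 in Exosc10 cKO (2.64 ± 1.19, n = 8). Every Exosc10 cKO oocyte lay above every control. The p20 controls held 2 to 16 counts of Gm22265, with a median of 7.5 under the filter's minimum of 10. Gm22265 thus passed the filter through knockout libraries, and with no count filter the edgeR adjusted p was 0.0432. With the filter the log2 change of Gm22265 was 2.21 (SE 0.53, edgeR adjusted p = 0.0118). It rose in both title tags, at 2.88 and 2.40 against 0.554 and 0.574, although with counts summed per tag the edgeR adjusted p was 0.14. Its host gene Hhat, an acyltransferase gene, had a log2 change of 0.44 (edgeR adjusted p = 0.618).

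Rnu11 was 0.192 ± 0.186 in p20 controls and 0.840 ± 0.620 in Exosc10 cKO, where it ran from 0.0821 over 0.843 to 2.14. Its p20 controls held at most 9 counts each, under the filter's minimum of 10, so Rnu11 passed the filter through knockout libraries. Its log2 change of 2.08 (SE 0.61, edgeR adjusted p = 0.061) missed the threshold, also with no count filter (edgeR adjusted p = 0.11). It passed with TMM (2.19, edgeR adjusted p = 0.016) and DESeq2 (2.13, adjusted p = 0.017). Without single oocytes it ran from 1.73 to 2.57 with an edgeR adjusted p of 0.021 to 0.19, and it passed in 3 of 16 such fits, those without control oocyte 2_3 (2.57) or Exosc10 cKO oocytes 1_3 (2.18) or 1_4 (2.24). The other 5 members had changes of -1.03 (Gm25360) to 0.36 (Gm25541), none past the threshold, and Rn7sk had -0.27 (SE 0.26, edgeR adjusted p = 0.837).

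With both nucleases lost, Rnu11 was the member that changed. It ran from 0.980 over 1.67 to 2.63 in dcKO oocytes (1.76 ± 0.477, n = 8), and all 8 lay above the highest control. Its log2 change against control was 3.12 (SE 0.63, edgeR adjusted p = 1.4e-04), 1 of 7 members called where 38.2% of genes were. Rnu11 passed the count filter through its knockout libraries, and with no filter the edgeR adjusted p was 8.6e-04. Summed per tag the edgeR adjusted p was 0.0033. The dcKO level was also above those of the single knockouts, by 1.24 against Dis3 cKO (SE 0.57) and 1.05 against Exosc10 cKO (SE 0.57). The second difference did not pass (edgeR adjusted p = 0.154). The first holds the Dis3 cKO libraries, so it is given with no test, and without single oocytes it ran from 1.10 to 1.64. Among the genes just outside the members, Rnu12 rose as well, by 2.75 in dcKO against control (SE 0.90, edgeR adjusted p = 0.0143), while its change of 2.49 in Exosc10 cKO did not pass (edgeR adjusted p = 0.169). Rn7sk had a log2 difference of -0.30 in dcKO (SE 0.26, edgeR adjusted p = 0.378).

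Gm22265 and Gm22513 differed between dcKO and a single knockout. These comparisons share libraries with those above. Gm22265 in dcKO ran from 0.309 over 0.597 to 2.26 (0.890 ± 0.700), below Exosc10 cKO at a log2 change of -1.58 (SE 0.52, edgeR adjusted p = 0.0183), 1 of 7 members called where 31.6% of genes were. Summed per tag the edgeR adjusted p was 0.10, and with no count filter the change did not pass either. Gm22513 in dcKO ran from 0.470 over 1.29 to 2.20 (1.30 ± 0.614), close to its levels in controls and in Exosc10 cKO (1.14 ± 0.544). It stood above the Dis3 cKO level of 0.191, at a log2 difference of 2.75 (SE 0.61). That difference rests on the Dis3 cKO libraries, whose low level was described above, so it is given with no test. In dcKO against Dis3 cKO 36.9% of genes were called (4289 higher and 1575 lower, or 4135 and 4047 with TMM scaling).

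The log2 effect of Exosc10 loss was thus -0.36 with Dis3 present and 2.75 with Dis3 lost for Gm22513, a difference of 3.11 (SE 0.80), and 2.21 and 0.01 for Gm22265, a difference of -2.20 (SE 0.74). These differences hold the Dis3 cKO libraries and were computed after the values had been seen, so they are given as a description, with no test.

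**Figure D5:**
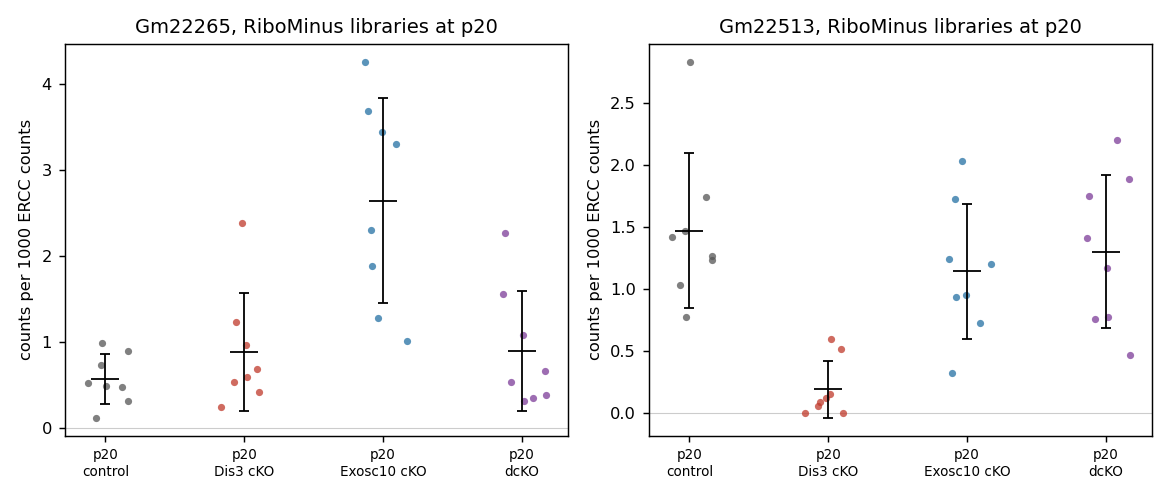
Gm22265 (left) and Gm22513 (right) in single p20 oocytes, as counts per 1000 ERCC counts (vertical axes), for the 4 genotypes; each point is 1 oocyte, and bars are the mean and SD, n = 8 per group. Gm22265 stands highest in Exosc10 cKO (2.64) and Gm22513 lowest in Dis3 cKO (0.191).

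Maturation of control oocytes was the other comparison outside the choice of members, and in poly(A) libraries Rn7sk passed the filter on counts of its own in controls. Rnu7 and Gm22973 passed it through their Dis3 cKO libraries, and Gm22973, with 1, 0 and 2 control counts, gives no information here. In GV3h against GV controls neither Rn7sk nor Rnu7 was called by edgeR with Benjamini-Hochberg adjustment, where 0.679% of genes were, and Rn7sk had the lower unadjusted p. Its log2 change was 0.92 (SE 0.35, edgeR adjusted p = 0.252), from 0.239 to 0.448 per 1000 ERCC counts. In MII against GV controls Rnu7 fell, at a log2 change of -4.2 (SE 0.70, edgeR adjusted p = 1.6e-07, or 1.78e-06 with no count filter), from 33 counts at GV, 11 of them in control oocyte 4, to 6 at MII, where 87.8% of genes were called. The median change of all genes was -2.12 there, with 58 genes higher and 15217 lower, and -0.27 with TMM scaling on gene counts, which called 58.5% of genes, 3950 higher and 6229 lower. Rn7sk had -0.65 (SE 0.35, edgeR adjusted p = 0.0744), which with TMM turned to 1.20 (edgeR adjusted p = 0.0057).

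Across the 71 poly(A) libraries Rn7sk was most alike to 5 genes by Pearson's r of log2(CPM + 1), namely A930028O11Rik (0.748), E130317F20Rik (0.730), Gm43570 (0.719), Gm7654 (0.715) and Gm12422 (0.712), against a median of 0.145 over 17386 genes. A930028O11Rik stood at 0.260 CPM in GV controls and 2.77 CPM in GV Dis3 cKO, and Gm43570 at 0.530 and 7.02 CPM. These libraries share depth, stage and genotype, so the values are a description. Among members, on log2 levels per ERCC count, Rn7sk went most with Gm25360 (r = 0.665) and Rnu7 (r = 0.604) and least with Gm25541 (r = 0.127) over the 71 poly(A) libraries. Over the 48 RiboMinus libraries r with Rn7sk was 0.410 for Gm25360 and -0.190 for Rnu11.

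Some members lie close to other genes, and part of these neighbours were tested in the same fits (Cilk1 near Rn7sk and several lncRNA genes were not). The lncRNA gene C920006O11Rik lies 281 bases from Rn7sk and rose in poly(A) libraries of Dis3 cKO oocytes, by log2 changes of 1.74 at GV (edgeR adjusted p = 0.00378), 3.61 at GV3h (edgeR adjusted p = 8.8e-08) and 3.19 at MII (edgeR adjusted p = 3.1e-07). In adult total RNA it had 0.47 (SE 0.69, edgeR adjusted p = 0.594), and at p20 its changes of 1.78 in Dis3 cKO (edgeR adjusted p = 0.141) and 1.81 in dcKO (edgeR adjusted p = 0.0564) did not pass. Grcc10 lies 156 bases from Rnu7 and had changes of 0.04 at GV, 0.75 at GV3h (edgeR adjusted p = 0.0535) and 2.34 at MII (edgeR adjusted p = 5.9e-08). Hhat, which holds Gm22265, rose by 0.58, 1.34 and 0.85 at the 3 stages (edgeR adjusted p = 0.0499, 3.4e-06 and 0.00146). Taf12, 4169 bases from Rnu11, fell at GV, at -0.66 (edgeR adjusted p = 0.00111), and at GV3h, at -0.47 (edgeR adjusted p = 0.0158). Ptpn6, 2516 bases from Rnu7, rose at GV3h (0.93, edgeR adjusted p = 0.0247) and MII (0.91, edgeR adjusted p = 0.0217), and Wdr5, 3270 bases from Gm25541, at MII (0.71, edgeR adjusted p = 0.011). Of all genes, 20.6% were called at GV, 28.2% at GV3h and 41.9% at MII, with median log2 changes of -0.23, 0.04 and 0.52. At MII 6535 genes were higher and 749 lower, or 4743 and 2572 with TMM scaling. In adult total RNA, where the median of all genes was -0.52 and 44.6% of them were called, Rab11fip4, which holds Gm25867, fell by 1.04, Wdr5 by 0.75, Eapp, 883 bases from Gm22513, by 0.61, Taf12 by 0.55 and Trappc6b, 2567 bases from Gm22973, by 0.53 (edgeR adjusted p = 0.00373, 0.00575, 0.00768, 0.013 and 0.0382). Gm13421, a lncRNA gene 496 bases from Gm25541, rose in dcKO against control, at 2.83 (edgeR adjusted p = 0.00605). Eapp had -0.28 in p20 Dis3 cKO (edgeR adjusted p = 0.359) and fell in dcKO against control, at -0.52 (edgeR adjusted p = 0.031). Taf12 also fell in dcKO against control, at -0.42 (edgeR adjusted p = 0.0253), where 38.2% of all genes were called. Whether reads of neighbours entered the counts of members was not tested.

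The protein partners of these RNAs were followed in 7 lists of 83 genes, and calls used the edgeR quasi-likelihood fits with Benjamini-Hochberg adjustment over all genes. In Dis3 cKO against control 2 of the 83 rose and 12 fell at GV (median -0.29 against -0.23 over all genes, 20.6% of which were called), 11 rose and 8 fell at GV3h (-0.11 against 0.04, 28.2%), and 24 rose and 1 fell at MII (0.38 against 0.52, 41.9%). In adult total RNA 2 of 82 rose and 45 fell (-0.55 against -0.52, 44.6%). These splits depended on the scaling. With TMM on gene counts 6 were higher and 5 lower at GV, 17 and 13 at GV3h, 13 and 13 at MII, and 13 and 10 in adult total RNA, where all genes went from 699 higher and 6144 lower to 2405 and 1900. In p20 Dis3 cKO 2 of 82 were called, both lower, where 6.09% of all genes were called, and TMM gave 2 higher and 2 lower. In Exosc10 cKO 2 were called, both higher, where 2.29% were, and TMM gave 5 higher and 5 lower. In dcKO against control 13 rose and 20 fell (-0.13 against -0.08), or 21 and 24 with TMM, where 38.2% of all genes were called. Single lists lay farther from all genes than the 7 together, such as the 7SK list at GV3h (-0.35 against 0.04) and the U11/U12 list in dcKO (-0.37 against -0.08).

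Of the 8 genes of the 7SK particle and P-TEFb, none rose and 2 fell in GV poly(A) libraries of Dis3 cKO, where 20.6% of all genes were called. These were Hexim2, an inhibitor of P-TEFb (-0.99, edgeR adjusted p = 8.7e-04), and Larp7, which binds the end of 7SK (-0.56, edgeR adjusted p = 0.00233), of which Larp7 did not pass with TMM (-0.27, edgeR adjusted p = 0.0874). At GV3h 4 fell, namely Hexim2 (-0.64), Larp7 (-0.57), Ccnt2 (-0.48) and Ssb (-0.40), where 28.2% of all genes were called. At MII, where 41.9% of all genes were called, the 1 call was a rise of Ccnt1, at 0.77 (edgeR adjusted p = 0.0174), which did not pass with TMM (0.45, edgeR adjusted p = 0.0567), while Ssb (-0.65), Larp7 (-0.33) and Ccnt2 (-0.22) were lower there. Hexim1, the other inhibitor of P-TEFb, had changes of 1.88, 2.07 and 1.65 at GV, GV3h and MII without passing (edgeR adjusted p = 0.125, 0.0633 and 0.105). It rose in adult total RNA, at 2.68 (edgeR adjusted p = 0.0047), where Mepce, the capping enzyme of 7SK, was among the 5 that fell (-0.66) and 44.6% of all genes were called. With TMM Hexim1 was again higher in adult total RNA (3.34), and of those 5 only Ccnt2 was called (-0.28). In dcKO against control, where 38.2% of all genes were called, Hexim1 (3.18, edgeR adjusted p = 5.6e-05), Cdk9, the kinase of P-TEFb (1.5, edgeR adjusted p = 8.8e-05), and Ccnt1 (0.49) rose, and Ssb (-0.72), Larp7 (-0.62) and Ccnt2 (-0.61) fell.

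Of 10 genes that tail and trim snRNA ends, Srrt, which links the cap-binding complex to RNA decay, rose at each poly(A) stage, in adult total RNA and at p20 with Exosc10 lost. Its log2 change was 1.62 at GV (edgeR adjusted p = 5.0e-05), 2.29 at GV3h (edgeR adjusted p = 3.7e-08), 2.15 at MII (edgeR adjusted p = 9.5e-08), 1.34 in adult total RNA (edgeR adjusted p = 0.0014) and 1.35 in dcKO (edgeR adjusted p = 2.8e-07). It also rose in Exosc10 cKO, at 0.68 (edgeR adjusted p = 0.0233). Toe1, a deadenylase of snRNAs, rose at GV3h (2.01, edgeR adjusted p = 0.0016) and in dcKO (1.88, edgeR adjusted p = 3.6e-05), and Usb1, which trims U6, at GV3h (1.11), MII (1.25) and in dcKO (2.0). Tent4b and Tent4a, which add oligo(A) tails, fell in adult total RNA (-0.76 and -0.71, or -0.22 and -0.20 with TMM). Of the 10 genes, 1 was higher and 1 lower at GV, 3 were higher at GV3h and 4 at MII. Of all genes, 20.6%, 28.2% and 41.9% were called at these stages. In adult total RNA 1 was higher and 5 lower (3 and 2 with TMM), where 44.6% of all genes were called. In dcKO 3 were higher and 3 lower, where 38.2% of all genes were called.

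Of 8 proteins of the U11/U12 particle, the partners of Rnu11, 3 fell at GV, where 20.6% of all genes were called. These were Rnpc3 (-0.64), Zrsr2 (-0.61) and Zcrb1 (-0.49), of which Zrsr2 alone passed with TMM, at -0.37. At MII 3 rose, led by Snrnp25 (3.27, edgeR adjusted p = 5.1e-07), where 41.9% of all genes were called and where TMM gave 2 higher and 1 lower. In adult total RNA 5 fell, and 1 with TMM, where 44.6% of all genes were called. In dcKO Zcrb1 (-1.0), Zmat5 (-0.67) and Pdcd7 (-0.58) fell, 3 of 8 where 38.2% of all genes were called, a share near the background. Rnpc3 rose in Exosc10 cKO, at 0.80 (edgeR adjusted p = 0.00513), where 2.29% of all genes were called. Of 8 genes of the U7 particle and histone processing, Zfp473 rose at GV3h and MII (2.03 and 2.04) and Lsm10 at MII (0.91), and Casp8ap2 fell at GV, GV3h and in dcKO (-0.65, -0.63 and -0.51). At GV3h 28.2% of all genes were called. Of these 8, 6 fell in adult total RNA, where 44.6% of all genes were called, and TMM gave 2 higher and 1 lower, and in dcKO 3 of 8 fell.

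Of 22 genes of snRNP export and assembly, 1 rose and 2 fell at GV, 4 rose at GV3h and 9 at MII. Of all genes, 20.6%, 28.2% and 41.9% were called at these 3 stages. In adult total RNA 9 of 21 fell, where 44.6% of all genes were called. With TMM 2 were higher and none lower at GV, 6 were higher at GV3h, 4 higher and 2 lower at MII, and 2 higher and none lower in adult total RNA. The largest called changes at these stages were those of Snrpd2 at MII (2.53), Gemin4, a part of the SMN complex, at GV3h (2.30) and Snrpb in adult total RNA (-1.32, or -0.73 with TMM, which did not pass at an edgeR adjusted p of 0.0844). In dcKO Tgs1, which makes the trimethyl cap, rose by 1.69 and Ncbp1, of the cap-binding complex, by 1.52. Of 14 Integrator genes, whose complex cuts nascent snRNAs, 2 fell at GV (Ints11 at -0.73 and Ints12 at -0.50), 2 at GV3h and 9 in adult total RNA, led by Ints1 (-1.21), where 20.6%, 28.2% and 44.6% of all genes were called. With TMM neither of the 2 passed at GV, where 1 Integrator gene was higher, and 2 were higher and 3 lower in adult total RNA, Ints1 among the latter (-0.71). In dcKO Ints5 rose (1.09) and 5 of the 14 fell, or 4 were higher and 5 lower with TMM, where 38.2% of all genes were called. Of 13 genes of snRNA transcription, Ice2, of the little elongation complex, fell at GV (-0.58), GV3h (-0.54) and in dcKO (-0.88), and Snapc2 rose at GV3h (1.71) and in dcKO (2.35). At MII 4 of the 13 were higher and 1 lower (2 and 1 with TMM), where 41.9% of all genes were called. In adult total RNA 6 were lower and none higher (3 higher and 2 lower with TMM), where 44.6% of all genes were called.

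Deposited CUT&Tag peak lists, from 3 libraries of pooled oocytes per group, were read at the member loci with 1000 bases on each side. RNA polymerase II peaks lay at Gm25541 in 3 of 3 adult Dis3 cKO libraries and 1 of 3 adult controls, at Rnu7 and Gm25867 in 2 of 3 Dis3 cKO libraries and 0 of 3 controls, at Gm24716 in 1 of 3 and 0 of 3, and at Gm22973 in 1 of 3 Dis3 cKO libraries and 2 of 3 controls. Rn7sk, Gm24716 and Gm25541 each had a peak in 1 of 3 p20 control libraries, and Rn7sk had none in the adult ones. The p20 lists were longer than those of adult controls, at 74287 to 82446 peaks, and 5.68% to 6.78% of snRNA genes had a peak in them. List sizes differed, from 19697 to 35843 peaks in adult controls and from 30311 to 122606 in Dis3 cKO, and the share of 1003 annotated snRNA genes with a peak was 1.99% to 3.79% and 2.19% to 10.1%, so more peaks were called overall in 2 of the 3 Dis3 cKO libraries. With no flank, no member had a peak in more than 1 library of a group. Peaks of the repressive mark H3K27me3 lay at no member in adult control, adult Dis3 cKO or p20 control libraries, and at Gm22265 and Gm25360 in 1 of 3 dcKO libraries. These lists were longer in the knockouts, and the share of all annotated snRNA genes with such a peak was 5.78% to 13.96% in adult controls, 15.4% to 19.4% in adult Dis3 cKO, 9.87% to 10.97% in p20 controls and 17.25% to 19.8% in dcKO.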

How the data were processed

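Single oocytes were sequenced as poly(A) RNA (71 libraries) and RiboMinus RNA (48 libraries), and pooled oocytes by CUT&Tag. The deposited tables hold whole-number read counts per gene and per ERCC RNA. The submitters' processing notes name cutadapt 2.5, FastQC 0.11.8, STAR 2.7.2a, SAMtools 1.9, HTSeq 0.9.1, R 3.5.1, DESeq2 1.24.0, SEACR and mm10, without roles, and the use of strand is not given in the sources used here. The deposited peak lists give a total signal per peak, used only to filter peaks within a list, and per the series' design text each library was first subsampled to the same number of reads, with duplicates kept.

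Members and gene lists were chosen with earlier results of these data known. Gene symbols matched 99.7% of poly(A) and 99.4% of RiboMinus gene IDs, from a table of gene names and RefSeq (GRCm38.p6). Member levels are counts per 1000 ERCC counts. Since the amount of ERCC RNA and the capture differ between assays, levels were not compared across them. Folds are ratios of group means where both groups held more than 3 counts, pooled ratios with a 95% exact counting interval where 1 group held 1 to 3, and bounds against 3 counts over the group where it held 0. Gene lists, named genes (in each list the up to 3 called genes with the largest change per comparison, and all called of the 7SK list) and the 5 genes most like Rn7sk follow fixed rules. One gene of these lists is not reported here.

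Tests used R 4.3.3 with edgeR 4.0.16 (2-sided quasi-likelihood F test, ERCC count as library size, filterByExpr with a minimum count of 10, Benjamini-Hochberg over all genes, threshold 0.05), with the 4 p20 groups in 1 fit, the 6 poly(A) groups in another and the adult RiboMinus pair in its own. Alternatives were TMM, ERCC size factors, no filter, DESeq2 1.42.0, 2 groups alone, the replicate number as a block, counts summed per title tag and each library left out. On data simulated for Exosc10 cKO against control (14288 genes), log2 changes of 1 were recovered in 49% of 96 genes and changes of 2 in 100% of 96, with 7.7% false among calls. The simulation gave all genes the same spread between oocytes and exact ERCC scaling. It therefore does not give the recovery for members with few counts or a wide spread, such as Rnu11.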

Additional observations from a re-analysis of the deposited data

Results flagged for a closer look

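Single oocytes stood far from the rest of their group in 8 of the 51 sets looked at, each of 1 member in 1 group of 8 libraries, where chance gives about 1 in 20. Whether that share holds for sets with few counts was not tested, so no excess is claimed. Gm24716 in MII controls held 18 counts in all and Rnu11 in p20 controls 23. Among RiboMinus libraries the oocytes that stood apart were Rn7sk in adult Dis3 cKO oocyte AM1713_2 (12.2 counts per 1000 ERCC counts, next highest 7.44), Gm22973 in adult Dis3 cKO oocyte AM1713_1 (0.814, next 0.450) and in p20 Exosc10 cKO oocyte 1_2 (1.66, next 0.640), Rnu11 in p20 control 2_3 (0.603, next 0.237), Gm22513 in p20 control 1_1 (2.83, next 1.74) and Gm22265 in p20 Dis3 cKO oocyte 2_4 (2.39, next 1.23). Among poly(A) libraries they were Rnu7 in GV control 4 (0.321, next 0.0828) and Gm24716 in MII control 5 (0.0368, next 0.0125). The effect of Exosc10 loss at p20 with and without Dis3 differed by 3.11 on the log2 scale for Gm22513 and by -2.20 for Gm22265, computed after the values of these 2 genes had been seen and given as a description.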

How the results depend on the processing

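Counts of called genes moved by over 1.5 times as follows: Exosc10 cKO from 364 to 1183 (TMM), 558 (DESeq2) and 220 (summed per tag); dcKO against control from 6071 to 4012 (per tag); dcKO against Exosc10 cKO from 5015 to 7809 (TMM) and 2798 (per tag); the interaction (the difference of the Exosc10 effect with and without Dis3) from 2155 to 4984 (TMM) and 818 (per tag); GV3h against GV from 118 to 471 (TMM), 228 (ERCC size factors), 185 (DESeq2) and 1853 (2 groups alone); MII against GV from 15275 to 10179 (TMM). List genes called went from 2 to 10 (TMM) and 1 (block) in Exosc10 cKO, and with TMM from 24 to 41 in dcKO against Dis3 cKO, 2 to 4 in p20 Dis3 cKO, 19 to 30 at GV3h, 47 to 23 in adult total RNA and 10 to 34 in the interaction. With no flank, members with a Pol II peak in 2 or more libraries went from 3 and 1 to 0.

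Signs turned as follows, in each case from a value that was not called or not tested. With TMM these were dcKO against Dis3 cKO for Gm25541 (-0.02) and Gm22265 (-0.38), dcKO against Exosc10 cKO for Rn7sk (0.01) and Gm25541 (-0.06), the interaction for Rn7sk (-0.17) and Gm22973 (-0.08), and MII against GV for Rn7sk (1.20, then called) and Gm22973 (0.51, on 2 and 1 counts). Summed per tag, Gm25541 had -0.05 in dcKO against Exosc10 cKO. In CPM the adult Dis3 changes were 0.32 (Rn7sk), 0.21 (Gm22973), 0.48 (Gm25541), 0.18 (Gm25360), 0.17 (Gm22513) and 0.13 (Gm22265), those at p20 0.18 (Rn7sk), 0.31 (Gm22973) and 0.15 (Gm25360), Gm25541 had 0.19 at GV and its gain was -0.29. With control tag AM1758 alone Rn7sk, Gm25541 and Gm22265 had 0.01 each. At p20 Rn7sk had 0.17 (Dis3 cKO tag 2) and 0.03 (control tag 2), Gm22973 0.16 (medians) and 0.16 (control tag 1), and Gm25360 0.03 (Dis3 cKO tag 1). With title numbers 1 to 8 alone, GV changes were -0.24 (Rnu7) and -0.10 (Gm24716). Without single libraries, signs turned within -0.11 to 0.88 (Rnu7 at GV), -0.35 to 0.26 (Gm22973 at p20), -0.10 to 0.45 (Gm25867 at GV3h), -0.78 to 1.48 (Gm25541 at GV), -0.49 to 1.77 (its gain), -0.37 to 0.06 (Gm25360 at p20), -0.33 to 0.52 (Gm22973, Exosc10 cKO), -0.11 to 0.26 (Gm25360) and -0.33 to 0.03 (Gm22513, dcKO against control), -0.35 to 0.39 (Gm22265, dcKO against Dis3 cKO), -0.13 to 0.07 (Rn7sk), -0.05 to 0.65 (Gm22973) and -0.03 to 0.18 (Gm25541, dcKO against Exosc10 cKO), and -0.05 to 0.80 (Gm22973) and -0.17 to 0.05 (Gm25541, interaction). Rnu11 in adult total RNA had 0.63 with tag AM1757 alone. The causes were not tested.

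Replicate numbers did not pair the samples (at most 3 of 8 pairs had a correlation of deviations over 0.1, and at most 3 of 8 libraries went best with their own number). With the replicate block 323 genes were called in Exosc10 cKO and 1895 in the interaction; Gm25360 turned to -0.08 in dcKO against control and Gm22265 to -0.01 against Dis3 cKO. Srrt in Exosc10 cKO (edgeR adjusted p = 0.0621) and Hexim2 and Ssb at GV3h (edgeR adjusted p = 0.0502 and 0.102) did not pass with it. No filter ended the dcKO change of Gm22265 against Exosc10 cKO (edgeR adjusted p = 0.052). Counts of 3 or fewer in controls limit the poly(A) ratios of Rnu11, Gm22973, Gm25360 and Gm22265.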
